A study of Mus musculus with 20 samples.

Results

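The paired difference between brainstem-labelled (BS) and cortex-labelled (Cort) microglia was examined within control mice. It covered 10 of the 20 RNA-seq libraries of the series, 1 BS-labelled and 1 Cort-labelled library from each of 5 of the 10 mice. The series set microglia carrying BRAF V600E, a constantly active form of a kinase of the ERK cascade, against control microglia in both regions. Per the labels' protocols, embryos of Cx3cr1-CreER and Braf LSL-V600E crosses were exposed at embryonic day 9.5 to 37.5 mg per kg of 4-hydroxytamoxifen, given once to the mother. Cx3cr1 drives this Cre in myeloid cells, and the pulse was aimed at their early progenitors. Controls were chosen by the mouse number in the name of each count column, and regions by its running number, odd for BS and even for Cort.

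The end-stage controls were M1375, labelled Braf VE; CX3 WT, and M1521, labelled Braf WT; CX3 HET. M1375 therefore carried the Braf allele with a wild-type CX3 locus, and M1521 the reverse. The labels give no age for end-stage. The 2-month controls were M2618, M2629 and M2633. The titles that carry these mouse numbers give the genotype Braf WT; CX3 HET, but they belong to other sample records than these columns. For 5 of the 6 mice at 2 months, the column and the title of the same sample record carry different mouse numbers. Under the record's own title, 3 of the 5 controls (M1375, M1521 and M2629) stay controls, and M2618 and M2633 are mutants. Both readings were run. Values per library are given below in the order M1375, M1521, M2618, M2629 and M2633, with BS-labelled libraries before Cort-labelled ones.

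Microglia are the resident macrophages of the brain. They arise from yolk sac progenitors, renew themselves locally and depend on colony-stimulating factor and TGF-beta signals. Microglia of brainstem, cerebellum and white matter are known to differ from those of cortical grey matter, mainly in immune and interferon-related transcripts and in lipid handling, while a core set of homeostatic genes is shared.

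Deposited counts summed to between 14647571 and 19385947 per BS-labelled library and between 9395203 and 18878955 per Cort-labelled library. Microglial identity genes were abundant in all 10 libraries. Tmem119, a microglial membrane protein, ranged over 6824–11540 CPM (counts scaled to library size) in BS-labelled and 7307–8841 CPM in Cort-labelled libraries. Y-linked transcripts were present in both libraries of M2618, and Xist in both libraries of each of the other 4 mice, so no pair mixed sexes. The BS-labelled library of M1375 had the highest mitochondrial share, 0.418%, against 0.122–0.256% in the other 9 libraries. Its deviations from the region mean did not follow those of its own Cort-labelled partner (r = -0.0388 across genes), whereas r was 0.224–0.361 in the other 4 mice.

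The region labels ran against transcripts of regional identity. Hox genes pattern the hindbrain and spinal cord and stay off in the forebrain, and 19 of 39 had at least 1 count. They held 7, 9, 24, 21 and 17 counts in the BS-labelled libraries, against 26, 63, 46, 51 and 41 counts in the Cort-labelled libraries. Summed Hox CPM ranged over 0.439–1.37 in BS-labelled and 2.56–4.4 in Cort-labelled libraries, so it was lower in BS-labelled libraries in 5 of 5 mice without overlap. Hoxb5 had 0 counts in every BS-labelled library, where 3 counts correspond to 0.157–0.188 CPM, and had 0, 27, 13, 12 and 10 counts in the Cort-labelled libraries. Hoxa5 totalled 0 counts in BS-labelled and 19 in Cort-labelled libraries, and Hoxc4 totalled 1 and 20. Hoxb4, present in every library, totalled 59 counts in BS-labelled and 68 in Cort-labelled libraries. It was the only Hox gene abundant enough to test and was not called (log2 difference -0.54, adjusted p = 0.717). Over the 19 genes, 14 had more counts in the Cort-labelled libraries and 4 had more in the BS-labelled ones.

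Forebrain transcripts were higher in sum, with 1 of 3 tested members called. Their summed level was 14.2 ± 2.56 CPM in BS-labelled and 7.37 ± 3.26 CPM in Cort-labelled libraries (SD, n = 5 mice), higher in BS-labelled libraries in 5 of 5 mice. Nrgn, a calmodulin-binding protein of forebrain excitatory neurons, had 5.70, 5.66, 3.95, 0.447 and 8.02 CPM in BS-labelled libraries, against 0, 0.628, 0.389, 0.153 and 1.61 CPM in Cort-labelled libraries. It was higher in the BS-labelled library of every mouse, although the ranges overlapped (log2 difference 3.14 ± 0.62 SE, adjusted p = 0.0357). The call on Nrgn was lost without any 1 of M1521, M2618, M2629 and M2633 (highest adjusted p = 0.151). The other tested members, Camk2a and Cux2, were each higher in 3 mice and lower in 2 and were not called (log2 differences 0.34 and 0.37, adjusted p = 0.749 and 0.836). The midbrain and hindbrain list, summing to 0.553 ± 0.513 CPM in BS-labelled and 1.17 ± 0.755 CPM in Cort-labelled libraries, was higher in BS-labelled libraries in 2 mice and lower in 3. The groups are therefore named by their labels throughout, and no direction below is assigned to an anatomical region.

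**Figure D1:**
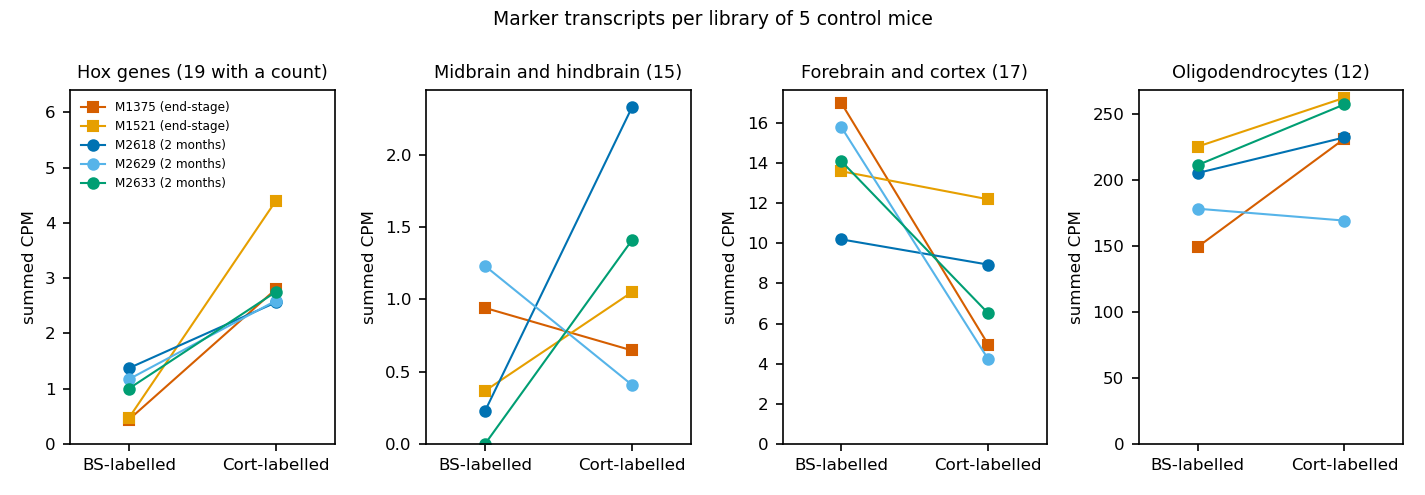
Summed CPM (y axis) of 4 marker lists in the BS-labelled and Cort-labelled library of each control mouse, joined by a line. Hox sums lie at 0.439–1.37 in BS-labelled and 2.56–4.4 in Cort-labelled libraries without overlap, forebrain sums are higher in BS-labelled libraries in all 5 mice, and the other lists are mixed.

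The plot of summed marker levels shows the Hox and forebrain lines running in opposite directions in every mouse. Oligodendrocyte markers summed to 193 ± 30 CPM in BS-labelled and 230 ± 36.8 CPM in Cort-labelled libraries, lower in the BS-labelled library of 4 mice and higher in that of M2629.

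With the mouse as a block, 218 of 13362 tested genes differed between BS-labelled and Cort-labelled libraries at an adjusted p under 0.05 in edgeR's quasi-likelihood test, or 1.63%. Of these, 65 were higher in BS-labelled libraries, 0.486% of tested genes, and 153 were lower, 1.15%. The median log2 difference over all tested genes was 0.0048. Among the called genes, 46 were higher and 100 were lower by more than 1 on the log2 scale. The direction was the same in all 5 mice for 217 of the 218, the exception being Ifi202b, which had no counts in either library of M2633. Among all 13362 tested genes it was the same for 2024. The paired test selects genes with a shared direction, so the 217 are not separate support for the calls. Levels did not overlap between the regions for 119 of the called genes, whereas 433 of all tested genes, 3.24%, showed no overlap (1.29% with BS-labelled libraries above and 1.95% with them below).

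How many genes were called depended on single mice. Without M1521 the count was 36, without M2618 it was 85, without M2629 it was 92, without M2633 it was 114 and without M1375 it was 355. All 36 calls made without M1521 were among the 218. With only the 3 mice that are controls under both readings, 44 genes were called, of which 39 were among the 218. Of the 62 called genes named in the text, 19 were called without each of the 5 mice in turn, and all of these are named below. None of the 62 changed direction in any of 15 alternative fits. Most of these fits reuse the same libraries or a part of them, so the kept direction is not separate support for the calls. In these sentences and below, a value after ± is the SD over 5 mice for a level and the standard error for a log2 difference.

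**Figure D2:**
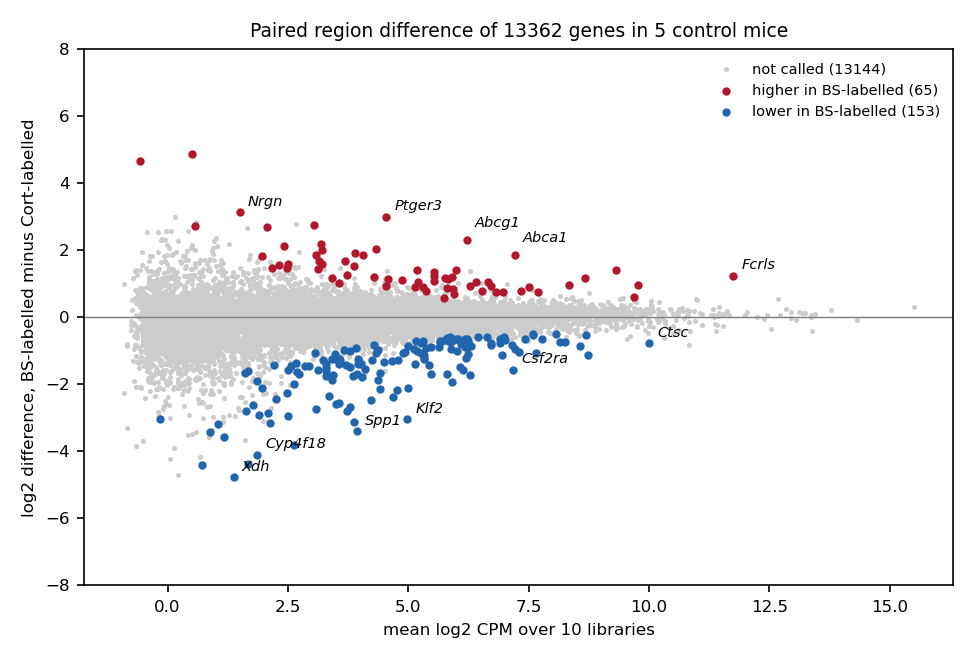
Log2 difference, BS-labelled minus Cort-labelled (y axis), against mean log2 CPM over the 10 libraries (x axis) for 13362 tested genes, with 65 called higher in red and 153 called lower in blue. Called falls outnumber called rises, and Fcrls is the most abundant gene among the labelled rises.

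Transporters of sterol efflux were higher in BS-labelled libraries. Abcg1, a transporter that moves cholesterol from cells to lipoprotein particles, had 130, 116, 113, 129 and 128 CPM in BS-labelled libraries, against 23.9, 25.5, 34.8, 17.2 and 25.3 CPM in Cort-labelled libraries. The BS-labelled libraries lay within a narrow band far above all Cort-labelled ones (log2 difference 2.31 ± 0.17, adjusted p = 0.000478). Abca1, which loads cholesterol onto apolipoproteins, had 402, 181, 163, 216 and 203 CPM in BS-labelled libraries, against 81.5, 52.2, 75.4, 35.3 and 70.9 CPM in Cort-labelled libraries. Every BS-labelled library was above every Cort-labelled one, and that of M1375 stood highest (log2 difference 1.87 ± 0.20, adjusted p = 0.00223). Both transporter genes are known targets of the liver X receptors, sensors of oxysterols. Both stayed called in all 15 alternative fits, with adjusted p between 0.00105 and 0.00681 for Abcg1 and between 0.00431 and 0.0177 for Abca1 when a mouse was left out.

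Some genes of sterol synthesis were lower. Srebf2, the transcription factor that drives sterol synthesis, averaged 35.03 ± 9.501 CPM in BS-labelled and 64.0 ± 12.1 CPM in Cort-labelled libraries (log2 difference -0.89 ± 0.17, adjusted p = 0.0328). Sqle, squalene epoxidase, averaged 3.22 ± 1.62 CPM in BS-labelled and 8.39 ± 2.67 CPM in Cort-labelled libraries (log2 difference -1.44 ± 0.28, adjusted p = 0.0328). Neither gene overlapped between the regions. Srebf2 lost the call without M1521, M2618 or M2633, and Sqle without these or M2629, with adjusted p up to 0.147 and 0.141.

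Of the 24 tested genes of the lipid and cholesterol list, 2 rose (Abcg1 and Abca1), 3 fell (Sqle and Srebf2 among them) and 19 were not called. The list's median log2 difference was -0.20. Mylip, a ubiquitin ligase and liver X receptor target, was higher in BS-labelled libraries in 5 of 5 mice but was not called (log2 difference 0.51 ± 0.12, adjusted p = 0.0719). Apoe, the main lipoprotein of the brain, ranged over 186–1798 CPM in BS-labelled and 674–1580 CPM in Cort-labelled libraries (log2 difference -0.45, adjusted p = 0.457).

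**Figure D3:**
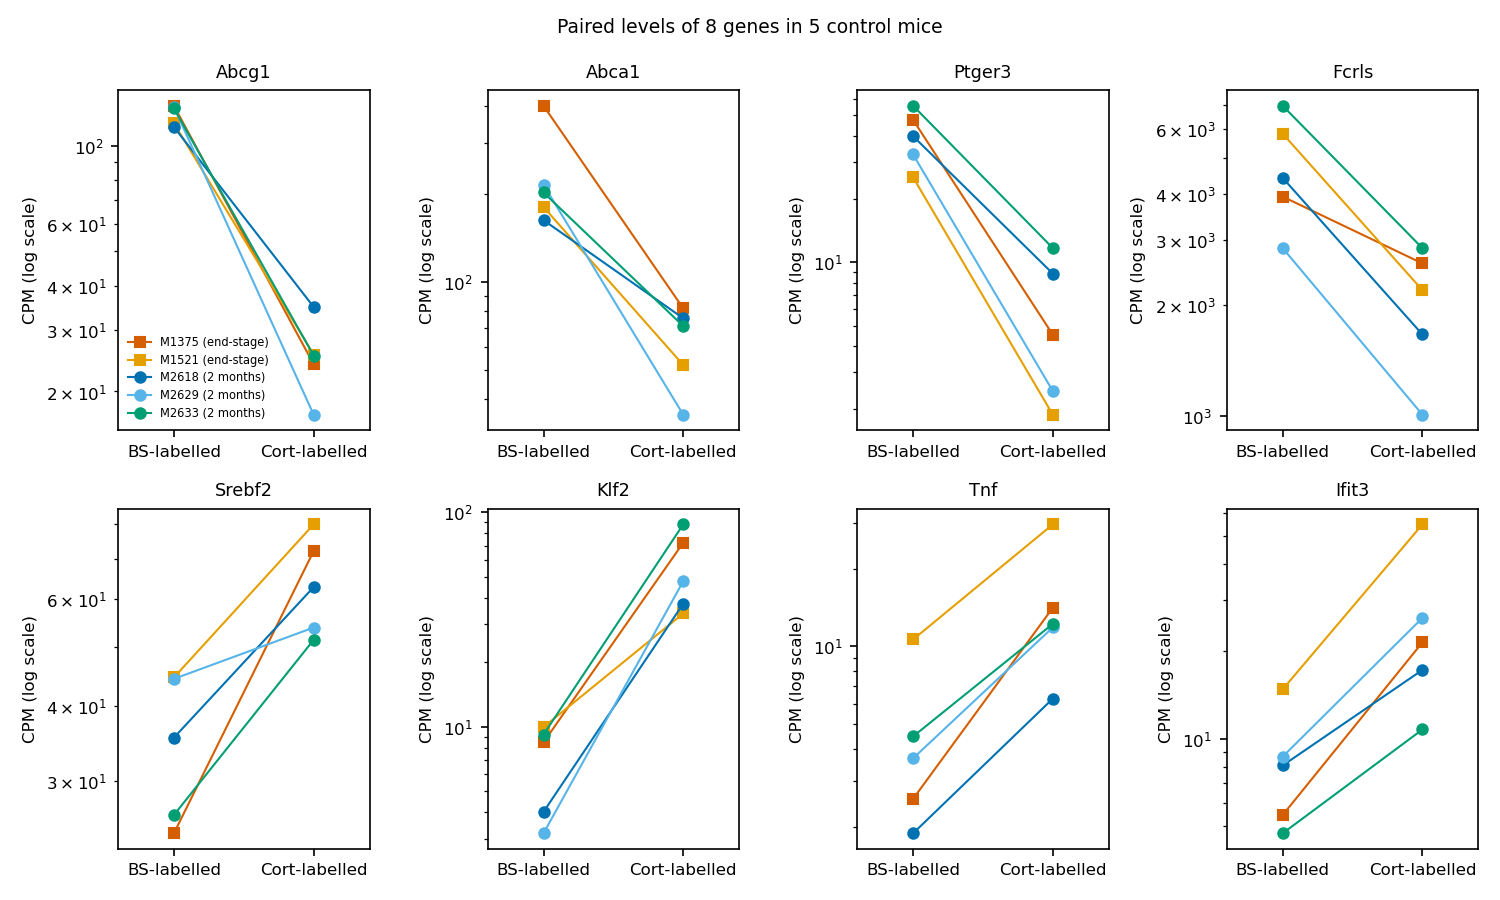
CPM on a log axis of 8 genes in the BS-labelled and Cort-labelled library of each control mouse, joined by a line. Abcg1, Abca1, Ptger3 and Fcrls are higher and Srebf2, Klf2, Tnf and Ifit3 are lower in the BS-labelled library of all 5 mice.

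The paired levels of these 8 genes show the size of the regional step against the spread between mice. For Abcg1 the mice started from nearly the same BS-labelled level, whereas for Tnf and Ifit3 M1521 was highest in both of its libraries.

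Receptors and surface proteins were among the other rises called without each mouse in turn. Ptger3, a prostaglandin E2 receptor, had 47.6, 25.4, 39.8, 32.6 and 55.5 CPM in BS-labelled libraries, against 4.52, 1.88, 8.83, 2.44 and 11.7 CPM in Cort-labelled libraries. The ranges were far apart (log2 difference 3.01 ± 0.28, adjusted p = 0.000979). Fcrls, an Fc receptor-like molecule used as a microglial marker, had 3938, 5838, 4428, 2853 and 6953 CPM in BS-labelled libraries, against 2593, 2193, 1662, 1006 and 2852 CPM in Cort-labelled libraries. The lowest BS-labelled level (M2629) was just above the highest Cort-labelled one (M2633), and each mouse showed the rise (log2 difference 1.25 ± 0.15, adjusted p = 0.00317). Crybb1, a crystallin expressed by microglia, averaged 566 ± 238 CPM in BS-labelled and 244 ± 67.2 CPM in Cort-labelled libraries (log2 difference 1.17 ± 0.14, adjusted p = 0.00363). Upk1b, a tetraspanin, averaged 431 ± 244 CPM in BS-labelled and 212 ± 104 CPM in Cort-labelled libraries, with overlapping ranges but a rise in all 5 mice (log2 difference 0.95 ± 0.12, adjusted p = 0.00388). Sema6d, a transmembrane semaphorin, had 18.1, 20.01, 13.3, 10.8 and 10.8 CPM in BS-labelled libraries, against 4.95, 3.49, 3.78, 2.54 and 1.68 CPM in Cort-labelled libraries (log2 difference 2.18 ± 0.24, adjusted p = 0.00265). Tmem44, a transmembrane protein, averaged 65.4 ± 13.95 CPM in BS-labelled and 26.4 ± 8.94 CPM in Cort-labelled libraries (log2 difference 1.35 ± 0.15, adjusted p = 0.0031).

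Falls called without each mouse in turn included receptors, ligands and regulators of myeloid activity. Csf2ra, the alpha chain of the GM-CSF receptor, had 88.1, 99.6, 58.4, 75.0 and 48.6 CPM in BS-labelled libraries, against 203, 303, 195, 224 and 157 CPM in Cort-labelled libraries. No BS-labelled library reached the Cort-labelled range (log2 difference -1.56 ± 0.12, adjusted p = 0.000478). Klf2, a transcription factor that restrains inflammatory activation of macrophages, had 8.46, 9.95, 4.01, 3.18 and 9.20 CPM in BS-labelled libraries, against 72.1, 33.8, 37.5, 47.7 and 87.9 CPM in Cort-labelled libraries. The gap between the ranges was more than the whole BS-labelled range (log2 difference -3.04 ± 0.27, adjusted p = 0.000875). Klf2 was also on the list of early genes induced by tissue dissociation, where it was the only 1 of 17 tested genes called, and the list's median was -0.15. In edgeR 6 of the 17 had an unadjusted p under 0.05. The list summed to 1340–1650 CPM in BS-labelled and 1580–1930 CPM in Cort-labelled libraries, lower in 5 of 5 mice. The part of dissociation in the differences was not tested. Tnfsf13b, the B cell survival factor BAFF, had 16.7, 39.0, 30.9, 24.9 and 16.3 CPM in BS-labelled libraries, against 80.1, 130, 80.9, 115 and 67.1 CPM in Cort-labelled libraries (log2 difference -1.92 ± 0.16, adjusted p = 0.000575).

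Hcar2, the receptor for hydroxybutyrate and niacin, had 5.14, 20.1, 17.01, 14.8 and 2.06 CPM in BS-labelled libraries, against 41.8, 106, 49.6, 55.8 and 6.51 CPM in Cort-labelled libraries. Both libraries of M2633 were the lowest of their region, and the fall was present in all 5 mice (log2 difference -2.11 ± 0.22, adjusted p = 0.00204). Nupr1, a stress-induced chromatin protein, averaged 23.5 ± 3.38 CPM in BS-labelled and 62.7 ± 8.21 CPM in Cort-labelled libraries (log2 difference -1.42 ± 0.13, adjusted p = 0.000979). Neat1, the long non-coding RNA that scaffolds paraspeckles, averaged 10.8 ± 7.68 CPM in BS-labelled and 43.5 ± 18.4 CPM in Cort-labelled libraries (log2 difference -2.18 ± 0.22, adjusted p = 0.00132). Sp100, a nuclear body protein induced by interferon, averaged 9.51 ± 5.65 CPM in BS-labelled and 31.6 ± 10.7 CPM in Cort-labelled libraries (log2 difference -1.87 ± 0.21, adjusted p = 0.0031). The rest of the 19 genes called without each mouse in turn were Slfn2, Lat2, Chst1 and Fxyd5, all lower, with log2 differences of -1.73, -1.06, -1.68 and -2.45.

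Interferon-stimulated genes were lower in BS-labelled libraries. Of 28 tested members of the interferon list, 9 fell (against 1.15% of all tested genes), none rose and 26 estimates were below 0, with a median log2 difference of -1.39. Their summed level was 229, 346, 327, 220 and 192 CPM in BS-labelled libraries, against 502, 873, 378, 424 and 315 CPM in Cort-labelled libraries, lower in 5 of 5 mice. Ifit3, an antiviral protein with tetratricopeptide repeats, had 5.45, 14.8, 8.07, 8.66 and 4.72 CPM in BS-labelled libraries, against 21.4, 54.6, 17.2, 26.0 and 10.7 CPM in Cort-labelled libraries. The BS-labelled library of M1521 lay above the Cort-labelled library of M2633, and each mouse showed the fall (log2 difference -1.55 ± 0.20, adjusted p = 0.00607). Ifi27l2a, a mitochondrial interferon-induced protein, had 1.44, 8.49, 4.01, 1.62 and 1.002 CPM in BS-labelled libraries, against 15.6, 50.3, 8.22, 12.2 and 9.26 CPM in Cort-labelled libraries (log2 difference -2.60 ± 0.35, adjusted p = 0.00607). Usp18, which cleaves ISG15 from proteins, fell with a log2 difference of -1.40 ± 0.21 (adjusted p = 0.00955), and Zbp1, a sensor of Z-form nucleic acids, with -2.91 ± 0.41 (adjusted p = 0.00775). Rtp4, Ifi204, Oasl2, Irf7 and Oas1a were the other members called, at -1.38, -2.95, -1.86, -1.75 and -1.79.

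Not every interferon gene took part. Isg15, a ubiquitin-like modifier, stood at 3.51–6.93 CPM in BS-labelled and 3.72–10.95 CPM in Cort-labelled libraries (log2 difference -0.45, adjusted p = 0.606). Without M1521, whose Cort-labelled library had the highest interferon sum, no member was called, although the median was -1.32. Ifit3 in that fit had a log2 difference of -1.46 and an adjusted p of 0.053. Over all tested genes the same fit called 36, against 218 with every mouse. Why the interferon calls were lost was not tested. In the 2-month mice alone none was called and the median was -0.94, while in the end-stage mice alone 10 were called and the median was -1.87. Under the record's reading of genotype 22 members were called.

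The promoters of some of these genes carry the core of the interferon-stimulated response element, a site bound by interferon-activated transcription factors. A GAAA tetramer followed, after any 2 bases, by another GAAA was searched on both strands in the 250 bases before each RefSeq start site of build GRCm38.p6. The motif was present in 3.46% of 27025 genes with a promoter and in 3.26% of the tested genes with one. Among called genes with a promoter, it was present in 9 of 119 that were lower, or 7.56%, and in 1 of 50 that were higher, or 2%. It was present in 12 of 21 members of the interferon list with a promoter, called or not. Of the 9 called members, 4 had a promoter and 2 of these, Ifit3 and Oas1a, carried the motif. The windows below, 80 bases each, are shown for 5 called falls that carry it, with the matching letters in capitals. They lie at chr19:34583353-34583432 (plus strand, Ifit3), chr5:120907526-120907605 (minus strand, Oas1a), chr8:10006553-10006632 (plus strand, Tnfsf13b), chr5:104434934-104435013 (plus strand, Spp1) and chr2:43787209-43787288 (plus strand, Arhgap15).
Ifit3: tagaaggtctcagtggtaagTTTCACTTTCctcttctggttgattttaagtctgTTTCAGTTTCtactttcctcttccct
Oas1a: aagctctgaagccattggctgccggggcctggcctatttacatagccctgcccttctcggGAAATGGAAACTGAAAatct
Tnfsf13b: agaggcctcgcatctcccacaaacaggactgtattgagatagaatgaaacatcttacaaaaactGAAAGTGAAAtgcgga
Spp1: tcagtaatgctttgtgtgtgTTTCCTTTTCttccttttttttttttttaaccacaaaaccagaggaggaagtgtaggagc
Arhgap15: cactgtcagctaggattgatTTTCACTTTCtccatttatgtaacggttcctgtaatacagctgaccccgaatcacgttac
Ifit3 and Oas1a each hold 2 matches in the window, which overlap in Oas1a, and the other 3 genes hold 1. A match describes these letters and is not evidence of binding.

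Of 19 tested cytokine and chemokine genes, 2 were lower in BS-labelled libraries and none was called higher, against 1.15% and 0.486% of all tested genes. Tnf, a central inflammatory cytokine, had 2.57, 10.6, 1.89, 3.69 and 4.48 CPM in BS-labelled libraries, against 14.1, 29.7, 6.28, 11.8 and 12.2 CPM in Cort-labelled libraries. The BS-labelled library of M1521 was the only one within the Cort-labelled range (log2 difference -1.75 ± 0.24, adjusted p = 0.00651). Il6, another inflammatory cytokine, had 12.9, 7.70, 11.6, 9.89 and 13.2 CPM in BS-labelled libraries, against 19.7, 20.9, 23.7, 34.3 and 35.2 CPM in Cort-labelled libraries, with no overlap (log2 difference -1.26 ± 0.20, adjusted p = 0.0148). The rest of the list was mixed: 14 of 19 estimates were below 0, with a median of -0.69, and the summed level was 941–1420 CPM in BS-labelled and 936–1610 CPM in Cort-labelled libraries, higher in 2 mice and lower in 3. Without M1521 neither Tnf nor Il6 was called (adjusted p = 0.0514 and 0.0822), and the median of the list was -0.37. The call on Il6 was also lost without M2618, M2629 or M2633. In the end-stage mice alone 5 members were called lower, with a median of -1.42, and in the 2-month mice alone only Il6 was, with a median of 0.0085. That difference between stages was not tested for the list.

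Of 26 tested genes of disease-associated and white matter-associated microglia, 4 fell (against 1.15% of all tested genes) and none rose, with a median log2 difference of -0.30. In the end-stage mice alone 8 fell, with a median of -0.77. In the 2-month mice alone Spp1 fell and Ctsd, a lysosomal protease, rose, with a median of 0.02. That difference between stages was not tested for the list. Spp1, the secreted matrix protein osteopontin, had 0.752, 0.472, 3.15, 9.55 and 1.18 CPM in BS-labelled libraries, against 11.4, 63.6, 12.0, 34.1 and 15.4 CPM in Cort-labelled libraries. No BS-labelled library reached the Cort-labelled range (log2 difference -3.40 ± 0.63, adjusted p = 0.0273). Clec7a, the beta-glucan receptor dectin-1, had 4.64, 2.46, 0.744, 12.96 and 2.71 CPM in BS-labelled libraries, against 20.6, 41.0, 12.1, 21.5 and 19.4 CPM in Cort-labelled libraries, with M2629 highest on the BS-labelled side (log2 difference -2.69 ± 0.46, adjusted p = 0.0174). Axl, a receptor kinase for apoptotic cells, averaged 8.53 ± 7.11 CPM in BS-labelled and 33.9 ± 22.0 CPM in Cort-labelled libraries (log2 difference -2.15 ± 0.42, adjusted p = 0.0328). Lyz2, lysozyme, averaged 265 ± 90.3 CPM in BS-labelled and 492 ± 231 CPM in Cort-labelled libraries (log2 difference -0.85 ± 0.17, adjusted p = 0.0357). Lpl, lipoprotein lipase, was lower in all 5 mice but not called (log2 difference -0.96, adjusted p = 0.237), and Trem2, their upstream lipid receptor, stood at 1843–3006 CPM in BS-labelled and 2096–2780 CPM in Cort-labelled libraries. Without M1521 the calls on Clec7a, Axl and Lyz2 were lost (adjusted p = 0.0807, 0.157 and 0.179). Clec7a also lost it without M2618 or M2633, Axl without M2618 and Lyz2 without M2629 or M2633, and the call on Spp1 was lost without M2618 or M2633 (highest adjusted p = 0.0987).

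Clec7a and Axl were also the 2 of 18 phagocytosis and clearance receptors that were called. In the lysosome list 1 of 26 genes was called: Ctsc, the protease that activates granule serine proteases, had 585, 656, 931, 870 and 753 CPM in BS-labelled libraries, against 1039, 1092, 1472, 1511 and 1308 CPM in Cort-labelled libraries. The regions did not overlap (log2 difference -0.76 ± 0.10, adjusted p = 0.00607, and 0.053 without M1521). The median of the lysosome list was 0.04. None of 18 antigen presentation genes was called at the adjusted threshold in the main edgeR fit. In that fit 6 had an unadjusted p under 0.05, and 15 estimates were below 0. With controls by the sample record edgeR called 7 members lower, and in the end-stage mice alone 4. H2-D1, a class I heavy chain, had 677, 1682, 870, 1509 and 1433 CPM in BS-labelled libraries, against 2146, 4888, 1093, 2134 and 1590 CPM in Cort-labelled libraries, lower in all 5 mice (log2 difference -0.83 ± 0.23, adjusted p = 0.111). Its near-identical class I relatives can share reads with it.

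Homeostatic microglial genes leaned upwards by small amounts. Of 24 tested genes, 22 estimates were above 0 and the median log2 difference was 0.20, but Fcrls was the only one called. P2ry12, the purinergic receptor that steers microglial processes, had 8975, 6565, 8477, 8009 and 6287 CPM in BS-labelled libraries, against 3907, 3965, 5855, 6604 and 6373 CPM in Cort-labelled libraries. It was higher in the BS-labelled library of 4 mice, M2633 being the exception (log2 difference 0.54 ± 0.16, adjusted p = 0.147). Siglech, a microglial lectin, averaged 2405 ± 470 CPM in BS-labelled and 1634 ± 141 CPM in Cort-labelled libraries, higher in all 5 mice and not called (log2 difference 0.54 ± 0.13, adjusted p = 0.0725). The fractalkine receptor Cx3cr1 stood at 1407–5912 CPM in BS-labelled and 2020–4473 CPM in Cort-labelled libraries.

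Several programs showed no called gene in the main edgeR fit. These were complement (0 of 11, with 2 at an unadjusted p under 0.05), oxidative phosphorylation (0 of 28, with 1), glycolysis (0 of 16, with 4), cell cycle (0 of 18, with 4) and the TGF-beta pathway (0 of 15, with 5). Estimates for oxidative phosphorylation were above 0 for 27 of 28 genes, with a median of 0.17. Medians of the complement, glycolysis, cell cycle and TGF-beta lists were -0.11, 0.11, -0.35 and -0.04. Other fits did call some members. With controls by the sample record, edgeR called 3 complement, 1 glycolysis and 2 cell cycle genes lower. That fit also called 1 TGF-beta gene higher and 1 lower. With the 2-month mice alone, edgeR called 2 glycolysis genes higher.

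**Figure D4:**
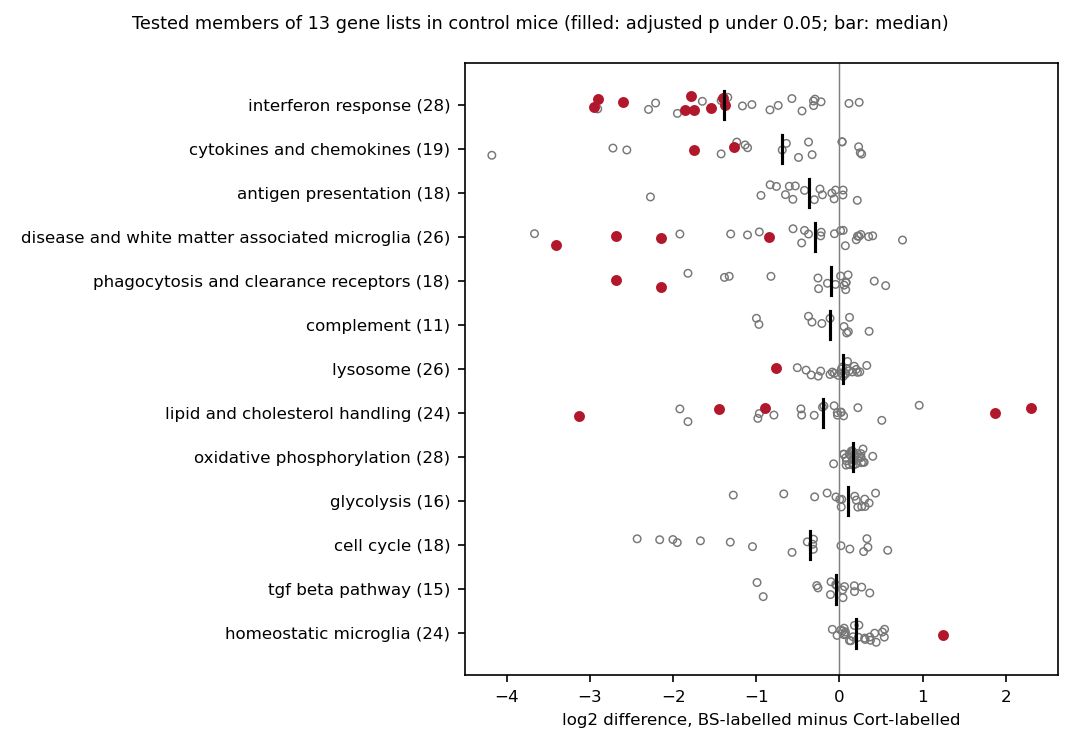
Log2 difference, BS-labelled minus Cort-labelled (x axis), of each tested gene in 13 lists (y axis, number tested in brackets), with called genes filled and the list median as a bar. The interferon median is -1.39 with 9 filled points, all below 0, and lipid handling has filled points on both sides.

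The plot of gene lists shows the interferon list shifted as a block, and in contrast the lipid list split into 2 rises and 3 falls around a median near 0.

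Transcripts of other cell types differed in level and direction. Astrocyte markers summed to 217–1530 CPM in BS-labelled and 143–1170 CPM in Cort-labelled libraries, higher in 5 of 5 mice. Nearly all of this sum was Slc1a3, which averaged 964 CPM in BS-labelled and 688 CPM in Cort-labelled libraries. Of the 4 tested astrocyte genes, 3 had estimates below 0, with a list median of -1.35. Neutrophil markers summed to 466–857 CPM in BS-labelled and 545–787 CPM in Cort-labelled libraries, lower in 4 of 5. Nearly all of that sum was Csf3r, which averaged 571 CPM in BS-labelled and 694 CPM in Cort-labelled libraries and was not called. In bulk samples, fewer cells of a type and less RNA per cell cannot be told apart. Endothelial and pericyte markers summed to 57.4–71.1 CPM in BS-labelled and 23.9–38.9 CPM in Cort-labelled libraries, higher in 5 of 5 mice, and Pecam1, an adhesion molecule also carried by myeloid cells, rose (log2 difference 1.04 ± 0.21, adjusted p = 0.0365). The call on Pecam1 was lost without M1521, M2618, M2629 or M2633 (highest adjusted p = 0.169). Neuronal markers summed to 3.46–15.7 CPM in BS-labelled and 4.12–26.7 CPM in Cort-labelled libraries, lower in 4 mice and higher in M1375; the mean difference of -6.91 CPM was -2.98 CPM without M1521. T and NK markers summed to 8.96–24.0 CPM in BS-labelled and 4.19–14.6 CPM in Cort-labelled libraries, most of it Klrd1, a lectin-like receptor, while Cd3e, Cd3d and Cd3g were at 0 counts in all 10 libraries. Border macrophage markers summed to 226–332 CPM in BS-labelled and 161–284 CPM in Cort-labelled libraries, higher in 5 of 5 mice, yet the median over its 12 tested genes was -1.47. The sum was carried by Stab1, at 198–281 CPM in BS-labelled and 118–237 CPM in Cort-labelled libraries, while Mrc1 was at 0–4.92 CPM in BS-labelled and 0.50–6.66 CPM in Cort-labelled libraries. In edgeR none of 12 border macrophage genes and none of 5 monocyte genes was called, with 5 and 0 at an unadjusted p under 0.05. DESeq2 called Stab1 higher and Siglec1 lower, and with controls by the sample record edgeR called Stab1 higher and 3 monocyte genes lower. The part of these transcripts in the differences above was not tested.

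The largest changes by size, among called genes whose mean log2 CPM reached 1, spanned several functions. Besides Nrgn, Ptger3, Abcg1, Sema6d and Abca1, the 12 largest rises were Cdc42ep1, an effector of the GTPase Cdc42 (log2 difference 2.75 ± 0.36), Btbd17 (2.69 ± 0.48), Arap2, an Arf GTPase-activating protein (2.12 ± 0.46), Nbl1, a secreted BMP antagonist (2.03 ± 0.31), Col6a3, a collagen VI chain (2.02 ± 0.32), Slc39a12, a zinc transporter (1.91 ± 0.32), and Pacsin1, an endocytic adaptor (1.87 ± 0.28). Their adjusted p ranged from 0.00607 for Cdc42ep1 to 0.0496 for Arap2. The spread between mice differed: Pacsin1 had 10.7–14.7 CPM in BS-labelled and 1.93–5.78 CPM in Cort-labelled libraries, while Col6a3 had 3.07–30.8 CPM in BS-labelled and 1.32–3.88 CPM in Cort-labelled libraries.

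The largest falls were in low-abundance genes. Xdh, xanthine dehydrogenase, had 0, 0.314, 0, 0.838 and 0 CPM in BS-labelled libraries, against 3.77, 12.6, 4.999, 2.44 and 0.269 CPM in Cort-labelled libraries, and its fitted log2 difference of -4.77 depends on the prior count. Cyp4f18, a cytochrome that inactivates leukotriene B4, had 0.125, 2.41, 0.172, 0.559 and 0 CPM in BS-labelled libraries, against 7.21, 10.5, 4.78, 6.30 and 3.62 CPM in Cort-labelled libraries (log2 difference -4.10 ± 0.65, adjusted p = 0.013). Slc2a6, a lysosomal hexose transporter, had 0, 3.04, 0, 0.894 and 2.12 CPM in BS-labelled libraries, against 10.7, 16.5, 8.89, 11.7 and 7.38 CPM in Cort-labelled libraries. Neither Cyp4f18 nor Slc2a6 overlapped between the regions. Besides Spp1, Klf2, Ifi204 and Zbp1, the other large falls were Arhgap15, a Rac GTPase-activating protein (-3.18 ± 0.62), Tnfsf8, the ligand of CD30 (-3.14 ± 0.64), Dna2, a replication nuclease (-2.86 ± 0.50), and Ctse, an aspartic protease (-2.79 ± 0.35). Ctse varied between mice as much as between regions, with 0.125, 8.28, 6.53, 0 and 3.12 CPM in BS-labelled libraries, against 0.861, 55.95, 36.6, 1.78 and 17.5 CPM in Cort-labelled libraries.

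**Figure D5:**
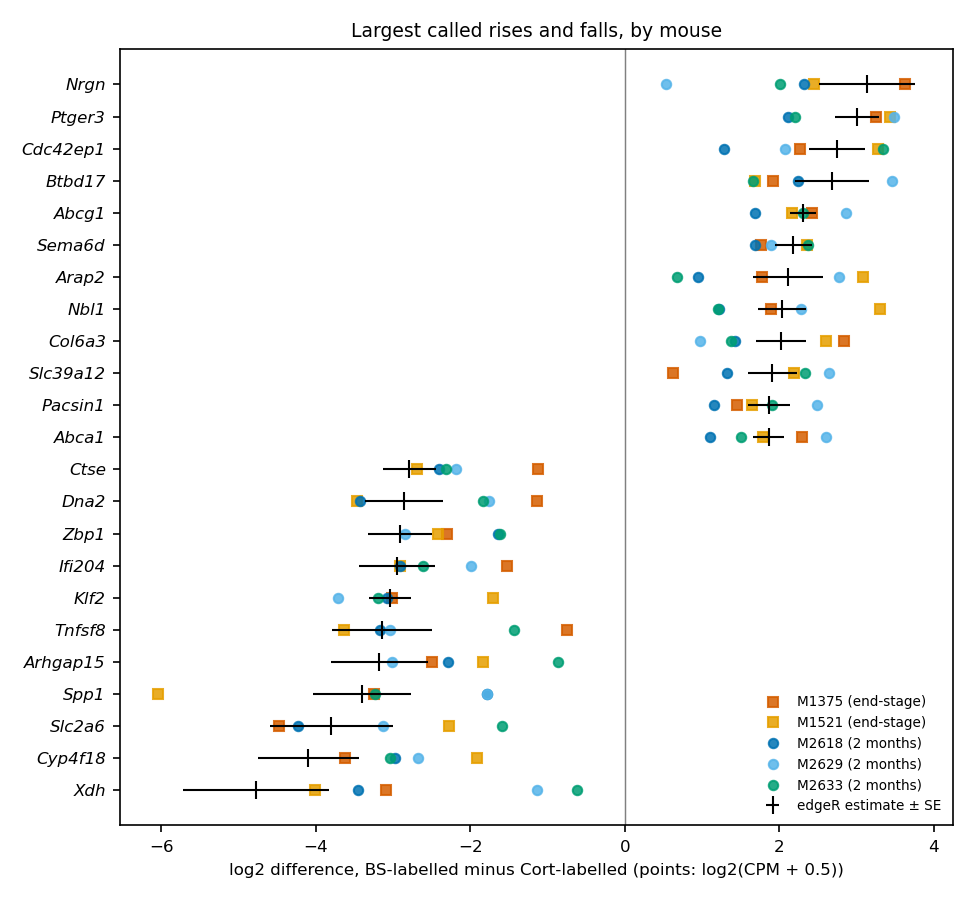
Log2 difference, BS-labelled minus Cort-labelled, with a pseudocount of 0.5 CPM for single mice (coloured points) and edgeR's estimate ± SE (black) for the largest called rises and falls. All points lie on the same side of 0 as the estimate, tightly for Abcg1 and Sema6d and widely for Spp1 and Xdh.

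In the plot of single-mouse differences, points of low genes lie nearer 0 than the estimate, because the pseudocount shrinks them. Several of these calls were sensitive to single mice: those on Slc2a6, Tnfsf8, Dna2 and Slc39a12 were lost without M1521, M2618, M2629 or M2633, with adjusted p up to 0.146, 0.186, 0.103 and 0.0854. The call on Arap2 was lost without each of the 5 mice (adjusted p up to 0.195). That on Xdh was lost in each of the 4 such fits that tested it (adjusted p up to 0.189). Btbd17 lost its call without M1521, M2618 or M2633 (up to 0.103) and Nbl1 without M2629 (0.0561). The calls on Cdc42ep1, Col6a3, Pacsin1 and Ctse were lost without M1521 (adjusted p = 0.0514, 0.0788, 0.053 and 0.0514), and that on Cyp4f18 without M2618 (adjusted p = 0.0792). Over the 62 named called genes, 40 were lost without M1521, 24 without M2618, 20 without M2629, 19 without M2633 and 3 without M1375.

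The regional difference was then compared between stages, 2 end-stage mice against 3 mice at 2 months. In edgeR, 0 of 13362 genes, 0%, differed in it at an adjusted p under 0.05, with 1337 at an unadjusted p under 0.05. DESeq2 called 62 and limma-voom 0, and edgeR called 68 without M1521. That last fit sets 1 end-stage mouse against 3 at 2 months, with the lone mouse assumed to vary like the others. The smallest p belonged to Ccl4, a chemokine that attracts myeloid cells. It had 6.52 and 15.5 CPM in the BS-labelled libraries of the end-stage mice, against 39.2 and 56.4 CPM in their Cort-labelled ones. At 2 months it had 52.6, 52.5 and 38.0 CPM in BS-labelled libraries, against 39.4, 37.4 and 43.9 CPM in Cort-labelled ones. The end-stage mice were thus lower on the BS-labelled side, and the 2-month mice were mixed (end-stage minus 2 months -2.44 ± 0.34, adjusted p = 0.237). H2-D1 was next, with a log2 difference between stages of -1.28 ± 0.20 (adjusted p = 0.349).

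Fitted alone, the 2-month mice gave 103 called genes, of which 68 were among the 218, and the end-stage mice gave 215, of which 98 were. Abcg1, Abca1, Ptger3, Csf2ra and Klf2 were called in both. The genotype label of M1375, 1 of the 2 end-stage mice, differed from that of every 2-month control, so its part in the stage comparison cannot be told apart from stage.

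The control difference was last set against that of the 5 mutant mice, using all 20 libraries. Of 14781 genes, 42, or 0.284%, differed in their regional difference between control and mutant mice, 17 with a larger and 25 with a smaller value in controls. Of the 218 genes, 8 were among them: Tmem204, Ccdc162, Gm26917, Ly9, Gm23935, Fam110a, Lsp1 and Tsc22d3. Tmem204 had a regional log2 difference of 1.06 in controls, and control minus mutant was -1.43 ± 0.20 (adjusted p = 0.0222). Ly9, a lymphocyte surface receptor, was at -1.05 in controls, and control minus mutant was 1.29 ± 0.21 (adjusted p = 0.0293). None of the 19 genes called without each control mouse was among the 42. With 0.284% of all tested genes called, that is the likely outcome for any 19 genes, so nothing is concluded from it. The count of 42 was 0 when genotype was taken from the sample record and 0 without M2618, so it depends on the reading of the labels.

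In a separate paired fit of the mutant mice, 2227 of 13551 genes were called, or 16.4%, with 7.68% higher and 8.75% lower. These mice were also chosen by column number. Under the record's own title M2617 and M2621 among them are controls, and this fit was not repeated under that reading. Of the 65 rises of control mice, 48 were also called higher in mutants, 73.8% of the control rises, and of the 153 falls, 117 were also called lower, 76.5%. Those shared genes made up 4.61% and 9.87% of the mutant calls in the same direction. Over the 12912 genes tested in both fits, 69.2% had the same sign. For Ptger3 the log2 difference was 3.01 ± 0.28 in control and 3.90 ± 0.98 in mutant mice, and for Csf2ra it was -1.56 ± 0.12 in control and -2.05 ± 0.10 in mutant mice. Abcg1 stood at 2.31 ± 0.17 in control mice and at 1.36 ± 0.54 in mutant mice, where it was not called (adjusted p = 0.117). Abca1 stood at 1.87 ± 0.20 in control mice and at 0.61 ± 0.33 in mutant mice, where it was not called (adjusted p = 0.238). The difference between control and mutant mice was 0.96 ± 0.61 for Abcg1 (adjusted p = 0.67) and 1.27 ± 0.43 for Abca1 (adjusted p = 0.27), so neither passed the genotype test. Il6 was at -1.26 ± 0.20 in control mice and at 0.74 ± 0.47 in mutant mice, a difference of -1.99 ± 0.57 that also did not pass (adjusted p = 0.173).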

How the data were processed

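Bulk RNA-seq was done on microglia from 10 mice. Per the labels' protocols, SMART-Seq v4 gave 12 cycles of cDNA amplification and KAPA Hyper Prep 8 cycles of library PCR. The authors deposited raw counts, not normalized. FastQC, Subread, edgeR and mm10 stand in the submitters' processing notes without versions. Sorting, annotation and strand setting are not given in the sources used here, so overlapping, antisense and near-identical genes may share reads. GENCODE M21 gave symbols for 55394 of 55487 identifiers, and the unmatched 93 held 0.00123% of counts.

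The 10 libraries were fitted in edgeR 4.0.16 (R 4.3.3) with filterByExpr, TMM and the quasi-likelihood test, mouse as a block, and Benjamini-Hochberg adjustment over all tested genes (threshold 0.05). Both libraries of a mouse come from 1 animal, so the design sets the pairing. CPM used TMM-scaled library sizes. Where a gene has 0 counts, the limit taken is 3 counts, a limit on counting error alone because PCR copies are counted as reads. Stage was tested as an interaction in the same libraries and genotype in all 20. Alternatives used DESeq2 1.42.0, limma 3.58.1 (voom), other size factors, no filter, no block, other readings of genotype, single stages and each control mouse omitted. In data simulated for 13362 genes, the paired test called 69% of genes changed by 1 and 99% of those changed by 2 on the log2 scale, with 5.11% false calls. Only genes above a minimum mean count were changed, and counts were drawn from the fitted model. These shares therefore do not cover low genes or a library that stands apart.

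Named genes were the 12 largest called rises and falls that reached a mean log2 CPM of 1 and moved one way in all 5 mice, without predicted genes, up to 2 genes by p per list, Hox genes and microglial markers. Other genes, among them those called without each mouse, were chosen after their values were seen. Some genes that these rules select are not reported here. The mice, gene lists and tests were chosen with earlier results of these data known. Promoter sequences are from RefSeq (GRCm38.p6), which matched 9375 of the tested genes.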

Additional observations from a re-analysis of the deposited data

Results flagged for a closer look

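Single libraries stood apart from the other 4 of their region in 23 of 182 groups of values examined, by a gap that chance alone exceeds in about 1 group in 20. M1521 held most of these. Its Cort-labelled library was far above the others for Zbp1 (17.3 CPM), Ifi27l2a (50.3 CPM), Usp18 (52.04 CPM), Rtp4 (87.83 CPM), Oasl2 (44.79 CPM), Irf7 (43.18 CPM), H2-D1 (4888 CPM), Nr4a1 (16.11 CPM) and the Hox sum (4.4 CPM). Its BS-labelled library was far above the others for Cyp4f18 (2.41 CPM), Zbp1 (2.829 CPM), Aldoc (3.196 CPM), Pfkfb3 (108 CPM) and Siglec1 (7.334 CPM).

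The BS-labelled library of M1375 was highest by a wide gap for Abca1 (402.1 CPM), Tnfsf8 (3.509 CPM), Snap25 (10.28 CPM) and the neuronal marker sum (15.7 CPM). The BS-labelled library of M2629 was highest for Scd2 (110.5 CPM), Lpl (32.23 CPM) and Cd34 (435.5 CPM). M2618 was highest for Tmem44 in its BS-labelled library (89.44 CPM) and for Scd2 in its Cort-labelled library (59.32 CPM).

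The regional difference itself differed between control and mutant mice for 42 genes by the interaction test.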

How the results depend on the processing

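The number of genes that differed between regions in control mice, 218 with the mouse as a replicate block, was 119 without the block, 348 with all 20 libraries in 1 fit, 582 with controls by the sample record, 44 with the 3 mice that are controls under both readings, 103 with 2-month mice only, 751 without a low-count filter and 732 with DESeq2. Leaving out a mouse gave 36 to 355 calls. RLE size factors (216), limma-voom (308) and end-stage mice only (215) stayed within 1.5 times of the main count. The number of genes whose regional difference differed between stages, 0, was 203 without the filter and 62 with DESeq2, 0 without the block, and 0 to 68 with a mouse left out (68 with a single end-stage mouse). The number that differed between control and mutant mice, 42, was 1 without the pairing by mouse, 549 without the filter and 383 with DESeq2. It was 105 with limma-voom, 0 with genotype by the sample record, and 0 to 83 with a control mouse left out. Mutant mice were not left out in turn. The mean difference of the interferon sum, -236 CPM, was -1940 CPM with controls by the sample record. The neuronal sum difference of -6.91 CPM was -2.98 CPM without M1521, and the border macrophage difference of 49.6 CPM was 32.1 CPM without M1521 and 82.1 CPM with controls by the sample record. The Hox difference of -2.13 CPM was -1.88 CPM without Hoxb4, an alternative added after seeing the data. The causes of these shifts were not tested.

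Of the 62 called genes named in the text, 13 were called in all 15 alternatives. All 62 kept their direction in each alternative that gave a value. Most alternatives reuse the same libraries or a part of them, so this is not separate support. Depth limits low genes most: 3 counts in the shallowest library correspond to 0.323 CPM.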

Other observations

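Slc1a3, a glutamate transporter best known from astrocytes, varied more between mice than between regions. It had 213, 1523, 226, 1473 and 1387 CPM in BS-labelled libraries, against 127, 1151, 189, 1016 and 957 CPM in Cort-labelled libraries, in the order M1375, M1521, M2618, M2629 and M2633. M1375 and M2618 were low in both regions, and the BS-labelled library was higher in all 5 mice (log2 difference 0.50 ± 0.11, adjusted p = 0.0564). Aldoc, another astrocyte gene, was lower in the BS-labelled library of all 5 mice (log2 difference -2.11 ± 0.35, adjusted p = 0.0158, with the call lost without M1521, M2629 or M2633, adjusted p up to 0.0685).

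Some called genes outside the lists were picked after their values were seen. Bank1, Fcrl1 and Tnfrsf17, known from B cells, were higher in BS-labelled libraries in all 5 mice, with log2 differences of 1.41 ± 0.26, 1.20 ± 0.16 and 1.12 ± 0.17 (adjusted p = 0.0263, 0.00621 and 0.0114). Fcrl1 had 90.7, 103, 68.9, 46.7 and 97.6 CPM in BS-labelled libraries, against 63.0, 43.6, 28.1, 15.2 and 38.9 CPM in Cort-labelled libraries. B and plasma cell markers summed to 629–950 CPM in BS-labelled and 666–856 CPM in Cort-labelled libraries, higher in 4 of 5 mice. Most of this sum was Ighm, which averaged 771 CPM in BS-labelled and 690 CPM in Cort-labelled libraries and was not called. The calls on Bank1, Fcrl1 and Tnfrsf17 were also lost without M1521 (adjusted p = 0.131, 0.0514 and 0.0828), those on Bank1 and Tnfrsf17 also without M2618, and that on Bank1 without M2629. Hes1, a Notch target, was also higher (log2 difference 1.59 ± 0.24, adjusted p = 0.0108, and 0.0558 without M1521).

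The inhibitory receptor gene Pdcd1 and its ligand gene Cd274 were both lower in the BS-labelled libraries of all 5 mice. Pdcd1 had 2.38, 10.7, 10.6, 10.5 and 4.25 CPM in BS-labelled libraries, against 34.1, 98.2, 28.2, 47.5 and 10.7 CPM in Cort-labelled libraries (log2 difference -2.37 ± 0.35, adjusted p = 0.00955). Cd274 had a log2 difference of -1.56 ± 0.26 (adjusted p = 0.0166). Cyp51, a sterol synthesis enzyme, had a log2 difference of -1.32 ± 0.23 (adjusted p = 0.0182), and the glycoprotein gene Cd34 of -1.12 ± 0.15 (adjusted p = 0.00679). Without M1521 these 4 calls were lost (adjusted p = 0.0558, 0.11, 0.0603 and 0.053 for Pdcd1, Cd274, Cyp51 and Cd34). Cd274 and Cyp51 also lost the call without M2618 or M2629.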
